A study of Arabidopsis thaliana with 12 samples.

Results

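The comparison described here is between wild-type Arabidopsis thaliana (Col-0) plants that carried either of 2 live soil communities. It contrasts 6 of the 12 RNA-seq libraries of the series, 3 from HO-MSU plants and 3 from HO-Malaka plants. They were chosen by their labels and not by any measured value. HO (holoxenic) plants grew from seed in FlowPots, a peat-based gnotobiotic system, after inoculation with a slurry of soil and the microorganisms in it. HO-MSU plants received the community of an agricultural soil and HO-Malaka plants that of an undisturbed grassland soil. The Malaka soil of the titles and count table is called Laurel in the sample descriptions. The other 6 libraries, AX-MSU and AX-Malaka, came from axenic (AX) plants of the same genotype and age that were given the same slurries after autoclaving. They give the difference between the soils in the absence of live microorganisms and share no library with the HO comparison. All 12 libraries were fitted together, so the AX libraries enter the scaling, the filter and the estimate of spread. Every library held the pooled whole rosettes of 8 plants from 4 FlowPots at 21 days. Of the 33610 genes in the table, 17317 nuclear genes had enough counts to be tested.

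Leaves respond to the microorganisms around them through cell-surface receptors that recognize conserved microbial patterns, and through the growth and stress hormones that such recognition and the nutrient supply set in motion. Soil communities and soils also differ in the nitrogen, sulfur, phosphate and water that they leave to the plant. Rosettes of Arabidopsis carry sensitive transcript readouts of these conditions. Among them are the genes of sulfate reduction and of the sulfur-rich glucosinolates, defence compounds made from methionine or tryptophan, the flavonoid genes, and the cold- and dehydration-inducible genes that code for hydrophilic protective proteins.

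Total counts were between 15065869 and 22710086 in the HO-MSU libraries and between 12718856 and 16327630 in the HO-Malaka libraries, and between 10211008 and 16236426 in the AX libraries. Chloroplast and mitochondrial genes took 53.0% to 57.7% of the counts of an HO library, and fits were read for nuclear genes only. The nuclear photosynthesis genes, which mark leaf tissue, had a summed level of 32016 to 34081 CPM (counts relative to library size, scaled by the trimmed mean of M values, TMM) in HO-MSU libraries and 33366 to 35961 CPM in HO-Malaka libraries. None of the 16 root markers and none of the 9 flower markers passed the filter. The root markers summed to 0.83 to 1.34 CPM in HO-MSU libraries and 0.66 to 1.41 CPM in HO-Malaka libraries. In a pool of whole rosettes, fewer cells of a type and less RNA per cell cannot be told apart.

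The 3 HO-Malaka libraries were less alike than the 3 HO-MSU libraries. Across nuclear genes, which are not independent replicates, Pearson's r of log2 CPM was 0.990 within each HO-MSU pair, against 0.980 between HO-Malaka 1 and 2, 0.987 between 1 and 3, and 0.986 between 2 and 3. Between the soils r ran from 0.983 to 0.988. HO-Malaka 2 correlated best with HO-MSU 2 (0.988) and HO-Malaka 3 with HO-MSU 1 (0.988), so the HO-Malaka libraries did not form a group by this measure. HO-Malaka 2 had the largest share of nuclear ribosomal RNA (21.8% of its counts, against 9.88% in HO-Malaka 1 and 13.4% in HO-Malaka 3) and the fewest other nuclear counts of the HO libraries (3404107). HO-Malaka 3 had counts at 25023 genes, against 21173 to 22294 genes in the other 11 libraries, and 1508 nuclear genes had a count in it alone. The first principal component of the 6 HO libraries (32.2% of the variance) set HO-Malaka 1 and HO-Malaka 2 at its ends, at 17.65 and -10.8, and did not separate the soils. The second (24.4%) did, with HO-MSU libraries at -11.1, -6.05 and -4.28 and HO-Malaka libraries at 1.46, 6.22 and 13.7.

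**Figure D1:**
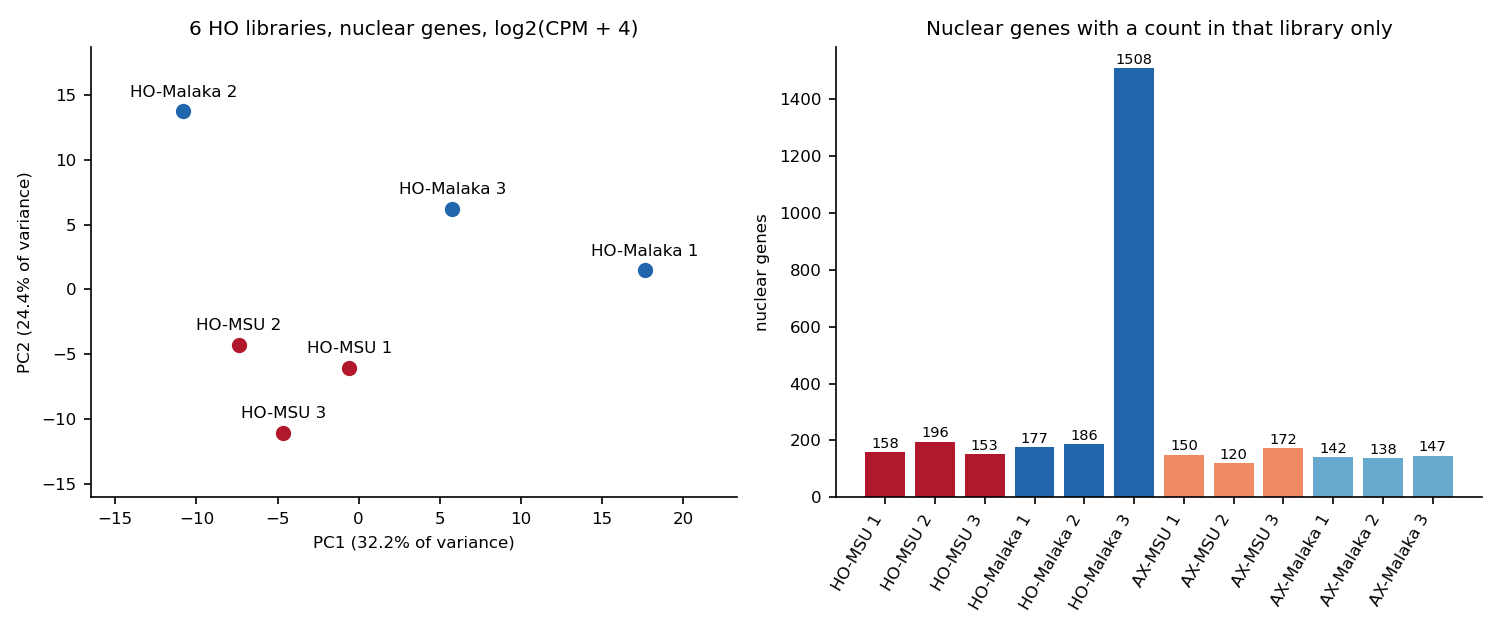
Left, the 6 HO libraries on the first 2 principal components of log2(CPM + 4) over nuclear genes, with the share of variance on each axis; HO-MSU libraries lie below 0 and HO-Malaka libraries above 0 on the second component. Right, number of nuclear genes with a count in that library and in no other; HO-Malaka 3 has 1508, the other libraries 120 to 196.

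The 2 live communities left most of the rosette transcriptome with no detectable difference. With edgeR fitted to all 12 libraries, 51 nuclear genes (0.295% of those tested) had a false discovery rate (FDR, Benjamini-Hochberg) under 0.05. Of the 51, 17 (0.0982%) were higher in HO-MSU and 34 (0.196%) lower. Of these, 7 (0.0404%) also changed by a log2 fold change (log2FC, HO-MSU over HO-Malaka) of 1 or more in size and are called DEGs. They were ERD7 and the non-coding RNA AT2G43375, which were higher in HO-MSU, and PRN2, CYP79F1, MSRB5, AT1G50590 and AT1G40104, which were lower. The estimates were centred on 0, with a median log2FC of -0.00, 50% of genes between -0.16 and 0.15 and 90% between -0.50 and 0.49. The 95% confidence interval lay within a log2FC of 1 on either side of 0 at 13682 genes (79.0%) and reached that size at 3635. At an unadjusted p under 0.05 there were 1589 genes, and 201 genes had a log2FC of 1 or more in size at any p. In a fit of the 6 HO libraries alone, 18 genes passed the FDR threshold, 15 of them among the 51. All 17 genes that rose had their 3 HO-MSU libraries above the 3 HO-Malaka libraries, as 6.41% of all tested genes did. Of the 34 that fell, 32 had all HO-MSU libraries below, as 7.11% of all tested genes did, and AT1G50590 and AT1G40104 overlapped. The genes were selected by the difference between these same libraries, so this order is a description and no further support for the calls. The soil contrast of AX plants, made in the same way, had 114 genes under the FDR threshold (0.658%), 47 higher and 67 lower in AX-MSU, and 23 DEGs.

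Of the genes that rose in HO-MSU, 4 were cold- and dehydration-inducible genes, and ERD7 had the largest estimate of all 17. ERD7, first described as an early-responsive-to-dehydration gene, had 33.9, 29.1 and 25.3 CPM in HO-MSU, against 8.66, 16.5 and 11.3 CPM in HO-Malaka. The groups did not overlap, and its log2FC was 1.31 ± 0.17 (SE; edgeR, FDR = 0.000197). In axenic plants the order of the soils was the opposite, with 4.35, 2.62 and 4.02 CPM in AX-MSU and 5.99, 7.99 and 6.87 CPM in AX-Malaka (log2FC -0.92 ± 0.22, FDR = 0.0376). ERD10, a dehydrin, had 62.1, 70.8 and 56.9 CPM in HO-MSU, against 24.7, 41.6 and 38.3 CPM in HO-Malaka (log2FC 0.87 ± 0.13, FDR = 0.000561). It too was lower in AX-MSU, at 19.3, 20.9 and 22.1 CPM, than in AX-Malaka, at 29.1, 30.6 and 32.8 CPM (log2FC -0.57, FDR = 0.0391). COR47, the dehydrin gene next to ERD10 on chromosome 1, had 101, 110 and 85.1 CPM in HO-MSU, against 59.0, 63.3 and 59.4 CPM in HO-Malaka (log2FC 0.71 ± 0.10, FDR = 0.000336). Its HO-Malaka libraries stood close to the axenic libraries, which held 48.5 to 61.4 CPM. RD29A, a widely used reporter gene of cold and abscisic acid responses, had 14.7, 15.4 and 10.3 CPM in HO-MSU, against 8.96, 6.96 and 6.70 CPM in HO-Malaka (log2FC 0.83 ± 0.15, FDR = 0.00866).

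These 4 were the members that passed the test among the 11 tested of 20 genes in the cold and dehydration list. Over all nuclear genes 0.295% passed. The list's median log2FC was 0.32, beside -0.00 over all nuclear genes, and 10 of the 11 estimates were positive, where 49.6% of all nuclear genes were. In axenic plants all 11 estimates were negative, with a median of -0.21. The difference between the live and the autoclaved contrast, tested as the interaction of soil and treatment, passed an FDR of 0.05 at ERD7 (log2 2.23, FDR = 3.33e-05), ERD10 (1.44, FDR = 5.76e-05) and COR47 (0.91, FDR = 0.000545) and missed it at RD29A (0.95, FDR = 0.0684). Members that did not pass included COR15A (log2FC 0.12), KIN2 (0.32), RD22 (0.14), the proline synthesis gene P5CS1 (0.04) and RAB18 (-0.41), a dehydrin strongly dependent on abscisic acid. CBF1, CBF2 and CBF3, the transcription factors that drive this group in the cold, were below the filter. The 8 tested genes of the abscisic acid signalling list had a median of 0.07 and none passed edgeR's FDR threshold (1 at an unadjusted p under 0.05, 0 with DESeq2). With 1 HO library left out, 3 or 4 members passed each time. Leaving out HO-Malaka 1, 2 or 3 gave list medians of 0.48, 0.30 and 0.32, and with HO-Malaka 1, 2 or 3 alone in its group the medians were 0.27, 0.62 and 0.33.

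The 250 bases before the start of the 4 genes are shown because this group is known for short upstream motifs, the dehydration-responsive element (DRE), with the core CCGAC, and the abscisic acid-responsive element (ABRE), with the core ACGTG. They were read from the RefSeq genome TAIR10.1 in the direction of the gene, at chr2:7757930-7758179 (minus strand) for ERD7, chr5:21240467-21240716 (plus strand) for RD29A, chr1:7089607-7089856 (minus strand) for ERD10 and chr1:7086874-7087123 (minus strand) for COR47. Capitals mark a match to either core on either strand.
ERD7: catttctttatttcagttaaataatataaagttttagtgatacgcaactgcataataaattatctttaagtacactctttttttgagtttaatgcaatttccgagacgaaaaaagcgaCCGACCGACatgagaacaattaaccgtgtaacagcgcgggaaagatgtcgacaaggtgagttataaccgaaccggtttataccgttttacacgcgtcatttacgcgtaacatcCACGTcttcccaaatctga
RD29A: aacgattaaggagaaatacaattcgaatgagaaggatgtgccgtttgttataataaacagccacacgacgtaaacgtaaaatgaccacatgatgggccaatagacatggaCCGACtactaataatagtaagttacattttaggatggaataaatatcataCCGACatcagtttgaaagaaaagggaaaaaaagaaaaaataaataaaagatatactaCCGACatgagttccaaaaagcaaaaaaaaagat
ERD10: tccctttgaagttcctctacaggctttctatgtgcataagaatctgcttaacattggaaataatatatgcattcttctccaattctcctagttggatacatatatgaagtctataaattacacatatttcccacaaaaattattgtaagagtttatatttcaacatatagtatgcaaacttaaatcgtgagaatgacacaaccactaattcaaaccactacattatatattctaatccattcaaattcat
COR47: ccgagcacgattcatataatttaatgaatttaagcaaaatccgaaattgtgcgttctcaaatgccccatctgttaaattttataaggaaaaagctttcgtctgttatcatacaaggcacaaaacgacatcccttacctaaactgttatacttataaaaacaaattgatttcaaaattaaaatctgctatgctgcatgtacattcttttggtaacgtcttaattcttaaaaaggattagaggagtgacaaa
ERD7 held 2 overlapping CCGAC at -132 and -128 and 1 ACGTG, in reverse, at -19 from the gene start. RD29A held 3 CCGAC, at -140, -90 and -33, while ERD10 and COR47 held neither core within this window. CCGAC occurred in this window at 12.0% of 27438 protein-coding genes and 13.2% of the 16742 tested, against 4 of the 17 genes higher in HO-MSU (23.5%) and 2 of the 34 lower ones (5.88%). ACGTG occurred at 22.9% and 23.1% of the same backgrounds, at 7 of the 17 (41.2%) and at 9 of the 34 (26.5%). A match is a run of letters and not a bound site.

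The other genes that rose in HO-MSU belonged to several pathways. Among them AT2G43375 and AT2G47440, and among the genes that fell but belong to no list PRN2, MSRB5 and PHI-1, came under the rule by which genes were named. The others were outside it and are given because they passed the test, so they were chosen after their values were seen. SMAX1, the repressor that the karrikin receptor KAI2 removes, had 155, 159 and 160 CPM in HO-MSU, against 111, 107 and 101 CPM in HO-Malaka (log2FC 0.57 ± 0.09, FDR = 0.00105). All 6 axenic libraries lay between, at 116 to 133 CPM, so that the live communities stood on opposite sides of them. KUF1, an F-box gene induced by karrikin, had 17.4, 15.745 and 16.7 CPM in HO-MSU, against 10.8, 8.18 and 8.89 CPM in HO-Malaka (log2FC 0.82 ± 0.13, FDR = 0.00109). Of 13 tested genes of karrikin and strigolactone signalling, a family put together after these values were seen, SMAX1 and KUF1 passed the test and 9 estimates were positive. Those that missed it included the SMAX1 paralogue SMXL2 (AT4G30350, log2FC 0.61, FDR = 0.0853), AT3G24420, a relative of the receptors (1.15, FDR = 0.246), and KAI2 itself (-0.37).

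AT1G11960, annotated as an early-responsive-to-dehydration family protein, had 14.3, 13.8 and 13.3 CPM in HO-MSU, against 4.94, 9.97 and 7.76 CPM in HO-Malaka (log2FC 0.90 ± 0.18, FDR = 0.0196). AT1G56660 had 39.7, 31.4 and 29.3 CPM in HO-MSU, against 9.77, 21.1 and 24.1 CPM in HO-Malaka (log2FC 0.89 ± 0.20, FDR = 0.0492). In both genes HO-Malaka 1 was the lowest library, as it was in ERD7 and ERD10. Transcription factor genes that rose were WRKY47 (log2FC 0.65), the homeodomain gene HB5 (0.51) and BIM1 (0.50), a partner of the brassinosteroid-regulated factor BES1. The diacylglycerol kinase gene DGK1 (0.66), AT3G19850 (0.62), the protein kinase gene AT3G01490 (0.53), AT1G31835 (0.46) and AT2G47440 (0.45), which codes for a tetratricopeptide repeat protein, made up the rest of the protein-coding genes higher in HO-MSU. AT2G47440 had 44.9, 50.7 and 49.8 CPM in HO-MSU, against 39.0, 32.0 and 34.9 CPM in HO-Malaka. Axenic plants showed the opposite order, with 32.6, 32.0 and 40.5 CPM in AX-MSU and 66.0, 58.2 and 61.6 CPM in AX-Malaka (log2FC -0.82 ± 0.10, FDR = 1.63e-05; interaction 1.28, FDR = 1.07e-05). The non-coding AT2G43375 had 29.0, 39.2 and 32.8 CPM in HO-MSU, against 9.30, 25.4 and 17.3 CPM in HO-Malaka (log2FC 1.00 ± 0.21, FDR = 0.0312). It overlaps 2 other annotated genes on its own strand, so its counts are uncertain. The same holds for AT1G31835, which overlaps AT1G06453 on its own strand. Of the 51 genes, 9 overlap a gene on the other strand, and 43 hold no 50-base stretch, the length of a read, that recurs elsewhere in the genome.

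**Figure D2:**
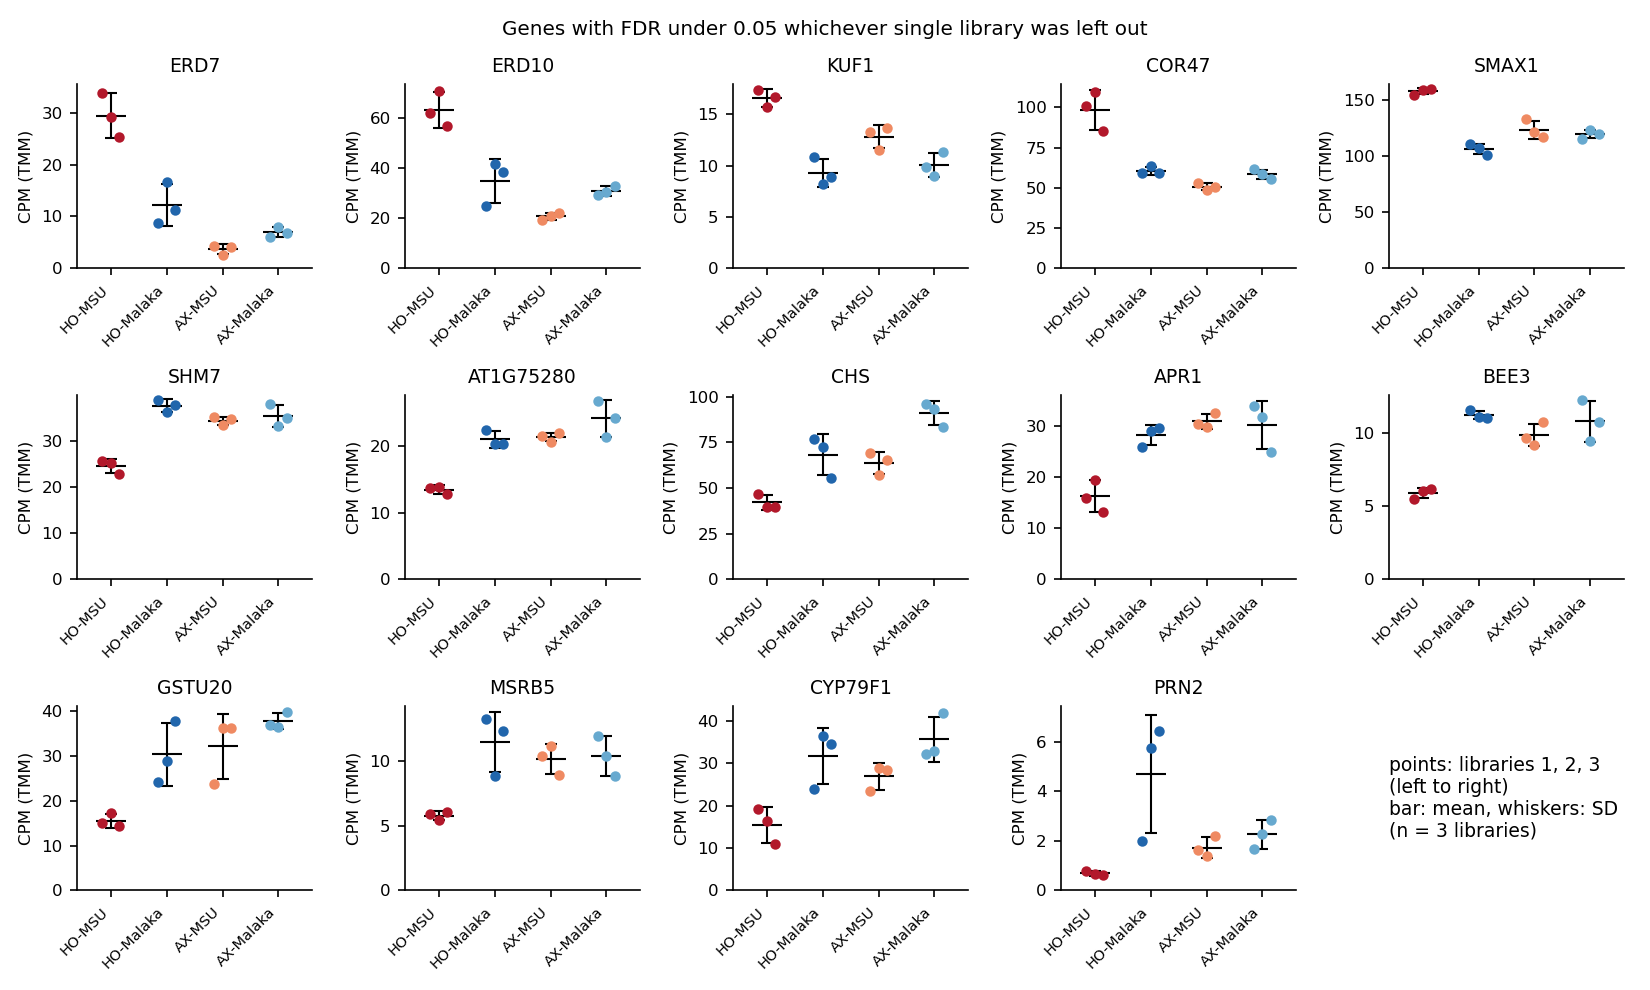
CPM of the 14 nuclear genes that kept an FDR under 0.05 whichever of the 12 libraries was left out; points are libraries 1 to 3 of HO-MSU, HO-Malaka, AX-MSU and AX-Malaka, bars means and whiskers SD (n = 3). In each of the 14 panels the HO-MSU and HO-Malaka points do not overlap, and HO-MSU lies above HO-Malaka for ERD7, ERD10, KUF1, COR47 and SMAX1 and below it for the other 9.

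Among the genes lower in HO-MSU, the aliphatic glucosinolate pathway, which makes glucosinolates from chain-elongated methionine, had the most members. CYP79F1, which carries out the first oxidation of the chain-elongated amino acid, had 19.1, 16.3 and 10.9 CPM in HO-MSU, against 24.1, 36.6 and 34.7 CPM in HO-Malaka (log2FC -1.02 ± 0.15, FDR = 0.000763). GSTU20, a glutathione transferase of the same core pathway, had 15.1, 17.2 and 14.3 CPM in HO-MSU, against 24.2, 29.0 and 38 CPM in HO-Malaka (log2FC -0.96 ± 0.15, FDR = 0.000763). For both genes HO-Malaka 1 was the library nearest to HO-MSU. In chain elongation, MAM1, the condensing enzyme, fell to 64.2, 72.6 and 64.3 CPM in HO-MSU, against 77.8, 105 and 116 CPM in HO-Malaka (log2FC -0.57 ± 0.12, FDR = 0.0403). IMD1, the dehydrogenase of the same cycle, fell to 25.1, 25.8 and 25.6 CPM in HO-MSU, against 27.3, 45.4 and 46.5 CPM in HO-Malaka (log2FC -0.63 ± 0.13, FDR = 0.0209).

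All 21 tested members of the list, of 22, had a negative estimate, where 50.4% of all nuclear genes did, with a median log2FC of -0.57 and a range of -1.02 to -0.14. Only the 4 named members passed the test, where 0.295% of all nuclear genes did. An unadjusted p under 0.05 was found at 14 members, where 9.18% of all nuclear genes had one. All HO-MSU libraries lay below all HO-Malaka libraries at 7 members, where 7.11% of all nuclear genes had this order. Members near the threshold were the isomerase subunits IPMI2 (log2FC -0.91, FDR = 0.0756) and IPMI1 (-0.75, FDR = 0.0853), the transaminase BCAT4 (-0.70, FDR = 0.0877) and CYP83A1 (-0.41, FDR = 0.0701). The regulator MYB29 was at -0.60 (FDR = 0.149) and MYB28 at -0.14 (FDR = 0.85). In axenic plants 16 of the 21 were negative, with a median of -0.18 and none past the FDR threshold (edgeR), and the interaction passed at none.

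This group depended on which HO-Malaka libraries were used. Its mean log2 CPM was 3.28, 3.26 and 3.04 in HO-MSU 1 to 3, against 3.33, 3.82 and 3.89 in HO-Malaka 1 to 3. HO-Malaka 1 thus stood close to the HO-MSU libraries. HO-Malaka 2 and 3 stood near the AX-Malaka libraries (3.77 to 3.86) and AX-MSU 3 (3.81), while AX-MSU 1 and 2 had 3.47 and 3.70. Without HO-Malaka 1, 12 members passed the test and the median was -0.79. Without HO-Malaka 2, 4 passed with a median of -0.52, and without HO-Malaka 3, 2 passed with a median of -0.42 and 19 of 21 negative estimates. With HO-Malaka 1 as the only library of its group, 16 of 21 were negative with a median of -0.16 and 1 passed. CYP79F1 and GSTU20 passed the test whichever single library was left out, while MAM1 and IMD1 did not.

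Genes of sulfate assimilation were lower in HO-MSU as well. APR1, a reductase of activated sulfate and a main control point of the pathway, had 15.9, 19.5 and 13.3 CPM in HO-MSU, against 26.0, 29.1 and 29.7 CPM in HO-Malaka (log2FC -0.78 ± 0.12, FDR = 0.00105). SHM7, a serine hydroxymethyltransferase induced by sulfur shortage, had 25.5, 25.2 and 22.9 CPM in HO-MSU, against 39.0, 36.2 and 37.8 CPM in HO-Malaka (log2FC -0.62 ± 0.09, FDR = 0.000763). Neither gene passed the test between the soils in axenic plants, where APR1 had 30.5, 29.8 and 32.6 CPM in AX-MSU and 34.0, 31.8 and 25.1 CPM in AX-Malaka, and SHM7 had 33.2 to 38 CPM in all 6 libraries. HO-Malaka plants were thus near the axenic level for both and HO-MSU plants below it, and the interaction passed at APR1 (-0.80, FDR = 0.039) and SHM7 (-0.58, FDR = 0.0476). APR2 fell by less, to 39.2, 47.0 and 36.6 CPM in HO-MSU, against 56.3, 51.4 and 61.5 CPM in HO-Malaka (log2FC -0.46, FDR = 0.043), and both live groups lay below the lowest axenic library (69.5 CPM). APR1 and APR2 each overlap a gene on the other strand.

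Of the 12 tested genes of the sulfur deficiency list, of 15, these 3 passed the test, where 0.295% of all nuclear genes did. Of the 12, 10 had a negative estimate, with a median of -0.50 in live plants and -0.01 in axenic plants. SDI1, a gene induced by sulfur deficiency that restrains glucosinolate synthesis, had an estimate of -1.47 but missed the threshold (FDR = 0.0749), and LSU2 (-0.54) and LSU3 (-1.48) were far from it. APR3 (-0.19) and the sulfate transporter genes SULTR1;2 (0.13) and SULTR2;1 (-0.25) did not pass either. Among 12 genes of sulfate activation and reduction and 11 genes of the methionine cycle, families put together after the values were seen, 10 and 9 had negative estimates. The methionine cycle members that fell were the methionine synthase gene MS2, the S-adenosylhomocysteine hydrolase gene SAHH2 and the S-adenosylmethionine synthetase gene MTO3. MS2 had 173, 189 and 174 CPM in HO-MSU, against 264, 276 and 229 CPM in HO-Malaka (log2FC -0.52 ± 0.10, FDR = 0.00854). SAHH2 changed by -0.50 (FDR = 0.00886) and MTO3 by -0.40 (FDR = 0.0492), and MTO3 was also lower in AX-MSU than in AX-Malaka (-0.42, FDR = 0.0194). MSRB5, which repairs oxidized methionine in proteins, had 5.87, 5.40 and 6.03 CPM in HO-MSU, against 13.3, 8.84 and 12.3 CPM in HO-Malaka (log2FC -1.01 ± 0.16, FDR = 0.00105; interaction -0.97, FDR = 0.0484). The myrosinase gene TGG2, whose product breaks glucosinolates down, fell to 96.8, 100 and 103 CPM in HO-MSU, against 156, 126 and 123 CPM in HO-Malaka (log2FC -0.43, FDR = 0.0497).

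**Figure D3:**
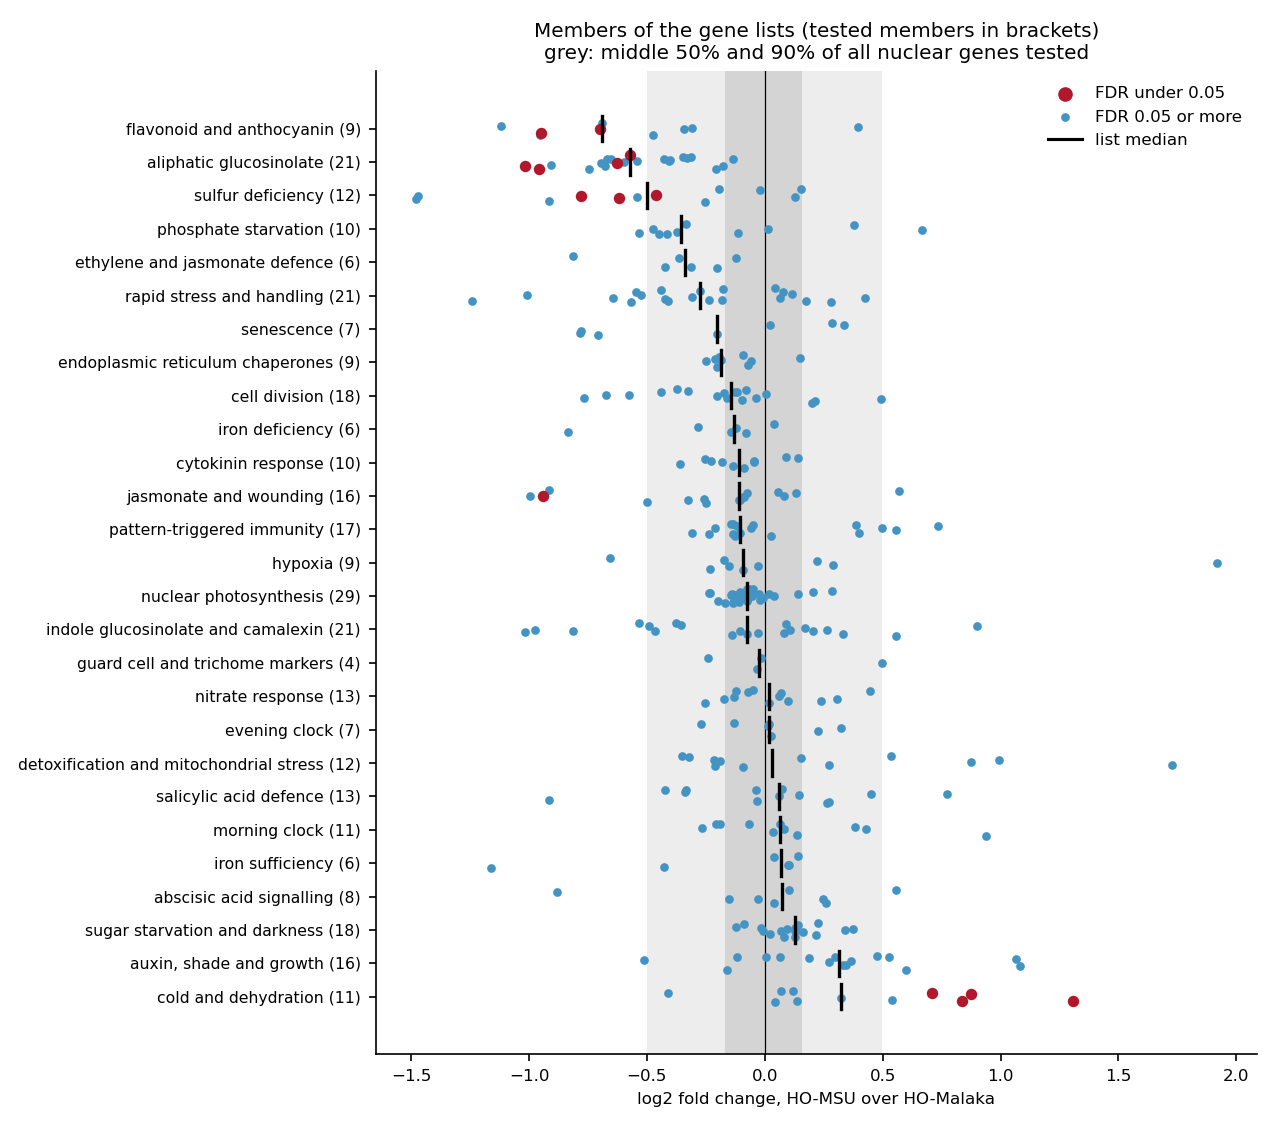
Log2FC (HO-MSU over HO-Malaka) of the tested members of the gene lists with at least 4 tested members, apart from the genes named in the study; each point is a gene, red where its FDR was under 0.05, and black bars are list medians. Grey bands hold the middle 50% (-0.16 to 0.15) and 90% (-0.50 to 0.49) of all nuclear genes tested; red points lie on the negative side for the flavonoid, aliphatic glucosinolate, sulfur deficiency and jasmonate lists and on the positive side for cold and dehydration.

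The flavonoid gene CHS was lower with the MSU soil whether the slurry was live or autoclaved. CHS, the chalcone synthase that opens the pathway, had 46.6, 39.7 and 39.8 CPM in HO-MSU, against 76.9, 72.6 and 55.3 CPM in HO-Malaka (log2FC -0.70 ± 0.11, FDR = 0.00109). In axenic plants it had 69.1, 57.2 and 65.2 CPM in AX-MSU, against 96.2, 93.2 and 83.5 CPM in AX-Malaka (log2FC -0.51 ± 0.11, FDR = 0.0181). FLS1, the flavonol synthase, had 4.03, 3.43 and 3.17 CPM in HO-MSU, against 8.14, 7.15 and 5.22 CPM in HO-Malaka (log2FC -0.95 ± 0.19, FDR = 0.0175). Of the 9 tested genes of the flavonoid and anthocyanin list, of 17, these 2 passed, beside 0.295% of all nuclear genes, and 8 had negative estimates. The median was -0.69 in live plants and -0.84 in axenic plants, where 2 passed. The anthocyanin genes DFR (-0.95) and LDOX (-1.12) did not pass the test. The interaction passed at no member, and at CHS it was -0.19 (FDR = 0.81). CHS overlaps a gene on the other strand.

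A single gene of the jasmonate and wounding list fell in HO-MSU. VSP2, a storage protein gene induced by jasmonate and wounding, had 2.57, 3.3 and 2.64 CPM in HO-MSU, against 4.77, 6.58 and 5.36 CPM in HO-Malaka (log2FC -0.94 ± 0.20, FDR = 0.0373). It was the 1 member of 16 tested that passed in live plants, where 12 estimates were negative and the median was -0.11. In axenic plants all 16 were negative with a median of -0.58, 3 passed, and VSP2 was at -1.23 (FDR = 0.000794). PHI-1, a cell-growth-related gene, fell in the same way, to 5.13, 6.96 and 6.18 CPM in HO-MSU, against 12.9, 10.1 and 11.7 CPM in HO-Malaka (log2FC -0.92 ± 0.20, FDR = 0.0317). Its difference in axenic plants was -1.77 (FDR = 2.62e-06). The interaction passed at no member of the jasmonate list and was 0.84 at PHI-1 (FDR = 0.3).

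The called genes with the largest changes were 3 lowly expressed genes that fell in HO-MSU. PRN2, 1 of the pirins, a family of cupin proteins, had 0.794, 0.669 and 0.603 CPM in HO-MSU, against 1.98, 5.74 and 6.42 CPM in HO-Malaka (log2FC -2.73 ± 0.38, FDR = 0.000336). These levels stood for 13, 15 and 8 counts in HO-MSU and 34, 61 and 91 counts in HO-Malaka, and the axenic libraries held 1.38 to 2.83 CPM, above all HO-MSU libraries. The interaction was -2.35 (FDR = 0.0476). AT1G50590, the other pirin tested, had 0.611, 1.12 and 0.528 CPM in HO-MSU, against 0.989, 5.83 and 4.87 CPM in HO-Malaka (log2FC -2.26 ± 0.47, FDR = 0.0277). For both pirins HO-Malaka 2 and 3 were high and HO-Malaka 1 was close to the axenic libraries. The estimate for AT1G40104 (log2FC -4.80 ± 0.96, FDR = 0.0196) came from 130 counts in HO-Malaka 3, with 3 and 12 counts in HO-Malaka 1 and 2 and 4, 0 and 2 counts in HO-MSU. Of its 50-base stretches 39.7% recur elsewhere in the genome, and it was not called without HO-Malaka 3.

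BEE3, a helix-loop-helix gene named for its induction by brassinosteroid, had 5.50, 6.02 and 6.18 CPM in HO-MSU, against 11.6, 11.1 and 11.0 CPM in HO-Malaka (log2FC -0.93 ± 0.14, FDR = 0.000763). The replicates of both groups were tight, and the axenic libraries (9.18 to 12.2 CPM) lay with HO-Malaka. Of 12 brassinosteroid-related genes, put together after the values were seen, BEE3 fell and BIM1 rose, and the estimates were split 6 to 6. AT1G75280, an isoflavone reductase-like gene, had 13.7, 13.9 and 12.7 CPM in HO-MSU, against 22.4, 20.3 and 20.3 CPM in HO-Malaka (log2FC -0.64 ± 0.11, FDR = 0.00276). UGT72B1, a glucosyltransferase of phenolic compounds, had 13.1, 13.8 and 10.6 CPM in HO-MSU, against 16.9, 24.5 and 21.9 CPM in HO-Malaka (log2FC -0.73 ± 0.13, FDR = 0.00414). The remaining genes that fell changed by -0.86 to -0.40. They were NUDT21, AT1G70600, AT2G39850, AT1G14250, AT2G40460, the glutathione transferase gene GSTF9, the fatty acid synthesis gene MOD1, the rhamnose synthase gene RHM1, the ribosomal protein gene RPL24A, MLP43, the lipase-like gene TLL1 and the chloroplast chaperone gene cpHsc70-2.

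No gene of the pattern-triggered immunity and salicylic acid lists passed the test between the live communities with all 12 libraries, and 1, WRKY70, did so without HO-Malaka 2. None of the 17 tested pattern-triggered immunity genes passed the FDR threshold with edgeR, the list median was -0.10, and 3 had an unadjusted p under 0.05, while DESeq2 called 0. FLS2, the flagellin receptor, had 14.5 to 17.1 CPM in HO-MSU, against 16.3 to 18.5 CPM in HO-Malaka (log2FC -0.13, FDR = 0.843). FRK1, a kinase gene induced by flagellin, had 5.13, 3.21 and 6.94 CPM in HO-MSU, against 3.49, 3.29 and 4.59 CPM in HO-Malaka (log2FC 0.40 ± 0.28, FDR = 0.709). The largest estimate was that of the receptor kinase gene IOS1, with 12.0, 5.71 and 8.37 CPM in HO-MSU, against 5.12, 3.48 and 6.78 CPM in HO-Malaka (0.74 ± 0.27, FDR = 0.343). SOBIR1, a co-receptor kinase gene, did not pass in live plants (0.39 ± 0.13, FDR = 0.248) or in axenic plants (-0.47 ± 0.14, FDR = 0.145), while the difference between these contrasts did (interaction 0.86, FDR = 0.0406). Of the 13 tested salicylic acid genes none passed with edgeR (1 at an unadjusted p under 0.05, 0 with DESeq2), and WRKY70 was closest (log2FC -0.91 ± 0.24, FDR = 0.091). The 18 tested of 22 genes that the study named, mostly genes higher in HO than in AX plants, had none past the threshold (4 at an unadjusted p under 0.05, 0 with DESeq2) and a smallest FDR of 0.343.

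Over all 31 lists, 5 had a member that passed, 2 (root and flower markers) had no member tested, and 24 had tested members of which none passed with edgeR. These 24 lists held 280 genes, of which 54 (19.3%) had an unadjusted p under 0.05, where 9.18% of all nuclear genes did, and DESeq2 made 4 calls in them. All lists were chosen with earlier results of these data known, so the 2 shares are a description and not a test. Their medians ran from -0.35 for phosphate starvation to 0.31 for auxin, shade and growth. In the auxin, shade and growth list 13 of 16 tested members had a positive estimate, as 49.6% of all nuclear genes did, and 7 had all HO-MSU libraries above all HO-Malaka libraries, as 6.41% of all nuclear genes did. The expansin gene EXPA1 was nearest the threshold (log2FC 0.48, FDR = 0.0701). Indole glucosinolate and camalexin genes, the tryptophan-derived branch, had 12 of 21 negative estimates and a median of -0.08, and SUR1, which both branches use, was at -0.46 (FDR = 0.0763). The rapid stress and handling genes, which include transcripts that rise within minutes of touch or harvest, had 14 of 21 negative estimates and a median of -0.28. Of these 21 genes 10 had an unadjusted p under 0.05, the most by number, though not by share, of any list without a called member. At 5 of them all HO-MSU libraries lay below all HO-Malaka libraries, where 7.11% of all nuclear genes had this order. The part of handling in the results was not tested. ZAT10 was its lowest member, with 1.65, 2.1 and 2.19 CPM in HO-MSU, against 5.06, 4.14 and 4.80 CPM in HO-Malaka (log2FC -1.24 ± 0.31, FDR = 0.0811). Nitrate response genes had a median of 0.02 and nuclear photosynthesis genes of -0.08. All 6 tested ethylene and jasmonate defence genes had negative estimates, with a median of -0.34, and 3 had an unadjusted p under 0.05.

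The 51 genes were next set beside the same soil contrast in axenic plants. Over all 17317 genes, log2FC in live and in axenic plants correlated by 0.0406 (Pearson) or 0.0495 (Spearman) across genes, which are not independent. Of the 34 genes that fell in HO-MSU, 31 had a negative estimate in axenic plants too, where 49.7% of all genes did. Of the 17 that rose, 12 had a negative estimate in axenic plants, the opposite sign. The axenic contrast itself passed the FDR threshold at 8 of the 51, beside 114 of all genes (0.658%). The interaction passed at 12 of the 51, 8 of those that rose and 4 of those that fell, beside 49 of all genes (0.283%). The interaction contains the HO contrast by which the 51 were selected, so its share among them is a description and is not read against that of all genes. The 8 were ERD7, ERD10, COR47, AT2G47440, AT2G43375, AT1G11960, AT1G56660 and BIM1, and the 4 were PRN2, MSRB5, APR1 and SHM7.

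**Figure D4:**
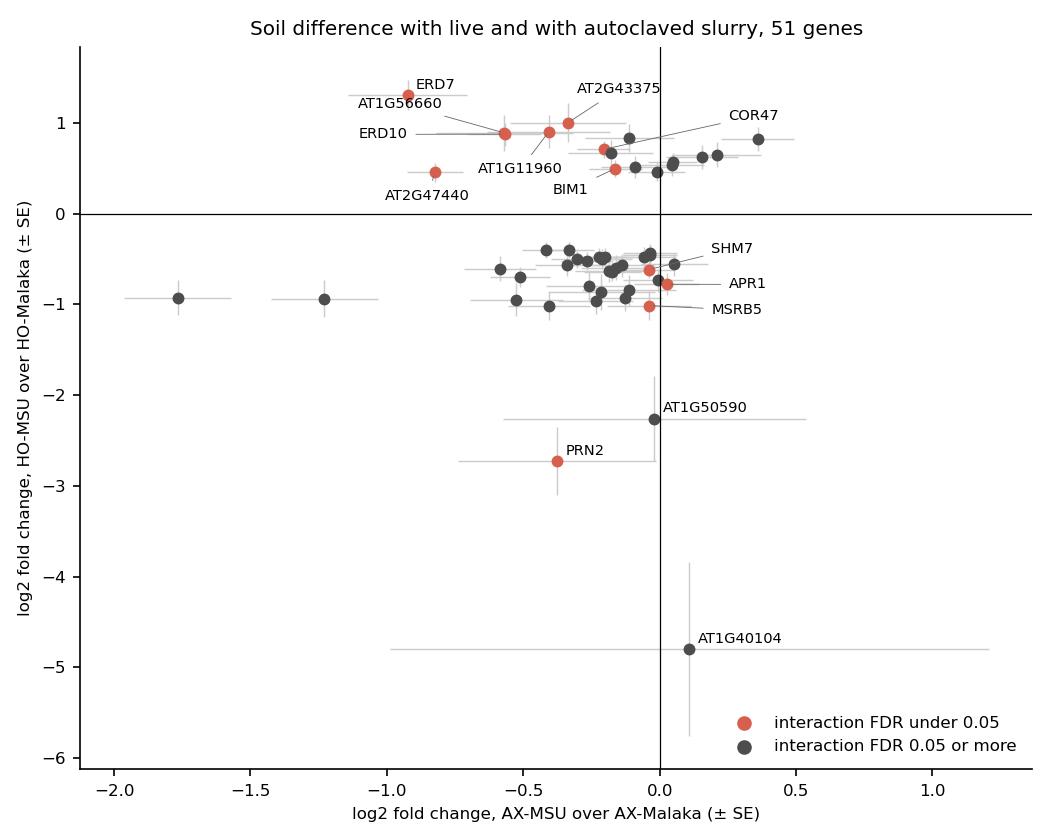
Log2FC between the soils with live slurry (HO-MSU over HO-Malaka, vertical) against that with autoclaved slurry (AX-MSU over AX-Malaka, horizontal) for the 51 genes with an FDR under 0.05 in live plants, with SE bars. The 12 red points are genes whose interaction had an FDR under 0.05, and 12 of the 17 genes above 0 lie left of the vertical line.

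The levels of the 51 genes can also be placed within the range of the 6 axenic libraries, as a description, since the genes were selected by the difference between the live groups. At 26 of the 34 genes that fell (76.5%), every HO-MSU library lay below every axenic library, and at 1 of them, APR2, every HO-Malaka library did too. Over all nuclear genes 7.24% had all HO-MSU libraries below the axenic range and 3.37% had all HO-Malaka libraries below it. At 2 of the 34, MLP43 and TLL1, the HO-Malaka libraries lay above the axenic range instead. At 12 of the 17 genes that rose (70.6%), every HO-MSU library lay above every axenic library, as 6.64% of all genes did, and at ERD7, AT1G11960 and WRKY47 the HO-Malaka libraries did so as well. At SMAX1, BIM1, AT1G31835 and AT3G01490 every HO-Malaka library lay below the axenic range. The HO-Malaka libraries were the less alike of the live groups, and their part in these counts was not tested.

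The number of genes called depended on single libraries, and on HO-Malaka 2 most of all. Without HO-Malaka 2, 196 genes passed the FDR threshold, 47 of them among the 51, and 28 were DEGs. Without HO-Malaka 3, 24 passed, 23 of them among the 51, and without HO-Malaka 1, 66 passed, 34 of them among the 51. Leaving out HO-MSU 1, 2 or 3 gave 24, 23 and 16 genes, and leaving out an axenic library, which enters only the scaling, the filter and the estimate of spread, gave 32 to 53. With HO-Malaka 1 as the only library of its group 306 genes passed, with HO-Malaka 3 alone 36 and with HO-Malaka 2 alone 23, the lone library being assumed to vary like the other groups. All 51 genes kept their direction in each of the 12 fits without 1 library, and 14 of them passed in every such fit. These 14 were ERD7, ERD10, COR47, KUF1 and SMAX1, which rose, and CYP79F1, GSTU20, APR1, SHM7, CHS, BEE3, MSRB5, AT1G75280 and PRN2, which fell.

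The 196 genes called without HO-Malaka 2 were of mixed kinds, with 91 higher and 105 lower in HO-MSU. Among the 91 were all 4 nuclear ribosomal RNA genes tested, 10 other genes that do not code for protein and 5 that RefSeq does not list, and no such gene was among the 105. The ribosomal RNA share that set HO-Malaka 2 apart moved with these calls and its part in them was not tested. Among the 105 were SDI1 (log2FC -1.63), ZAT10 (-1.32), WRKY70 (-1.08), WRKY33 (-0.70) and the ATP sulfurylase gene APS1, and among the 91 AT4G30350 (SMXL2, 0.66), EXPA1 (0.59) and CYP81D11 (1.07), all chosen after their values were seen. The 66 genes called without HO-Malaka 1 held 32 that were not among the 51. Of these, 8 belonged to the aliphatic glucosinolate list, among them IPMI2 (log2FC -1.24), BCAT4 (-0.93) and MYB29 (-0.79), and SUR1 (-0.57) and APS1 (-0.42) were lower in HO-MSU too. The pathogen-responsive genes LURP1 (log2FC 2.34, FDR = 0.0381) and PCC1 (1.47, FDR = 0.0452), which are on no list, were called higher in HO-MSU in that fit, and these genes as well were chosen after their values were seen. LURP1 had 6.05, 1.38 and 12.4 CPM in HO-MSU, against 6.28, 1.598 and 0.988 CPM in HO-Malaka, so that HO-Malaka 1 stood with the higher HO-MSU libraries and the groups overlapped. Without HO-Malaka 3 the genes lost from the 51 included AT1G40104, AT1G50590, MAM1, IMD1, RD29A and VSP2.

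**Figure D5:**
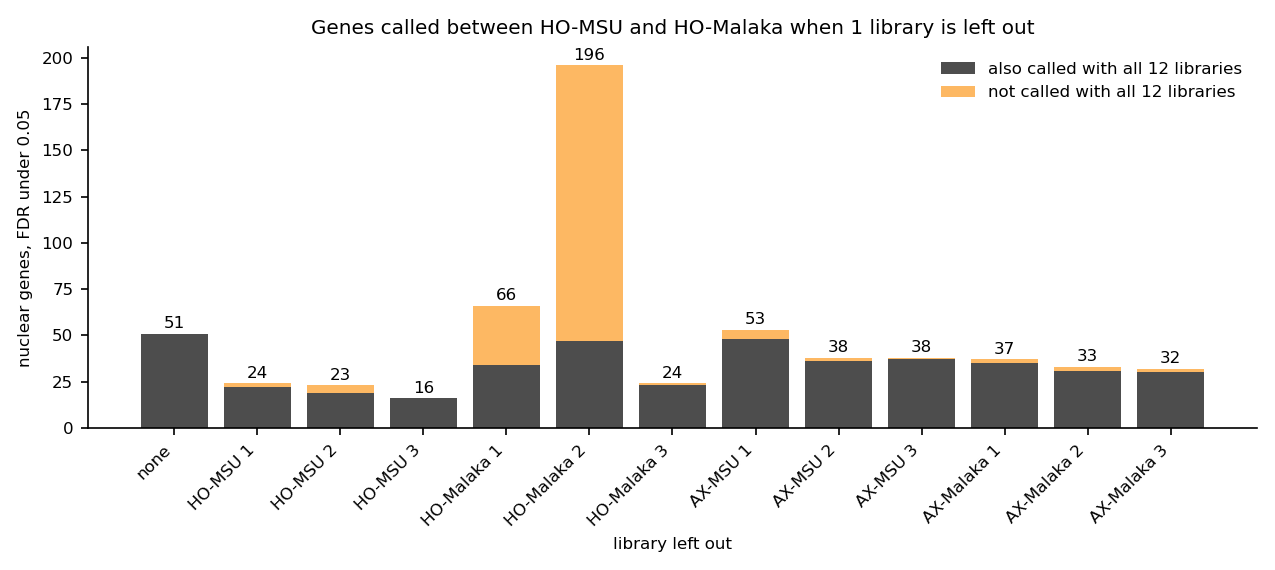
Number of nuclear genes with an FDR under 0.05 between HO-MSU and HO-Malaka with all 12 libraries and with each library left out, split into genes that were and were not called with all 12. The bar without HO-Malaka 2 reaches 196 and the other bars lie between 16 and 66.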

How the data were processed

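The authors sequenced RNA of whole rosettes as single 50-base reads in 12 libraries. Per the labels, reads were trimmed with Trimmomatic 0.39, aligned with STAR to TAIR10 and counted with featureCounts, and the deposited values are raw counts per gene. The annotation and strand setting of the counting are not given in the sources used here.

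Counts were fitted with edgeR 4.0.16 (R 4.3.3; quasi-likelihood F test, TMM scaling, filterByExpr with a minimum count of 10 and a minimum total of 15) in a model of the 4 groups over all 12 libraries. P-values were adjusted over 17588 genes, of which 271 organelle genes are not reported. SE is the size of the log2FC divided by the square root of F.

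The comparison, the gene lists and the rule for named genes were chosen with earlier results of these data known. The rule took the largest non-overlapping DEGs in each direction, the 5 smallest interaction p-values, genes named in the study, list members that passed (otherwise the 2 smallest p) and the 3 largest axenic DEGs in each direction. Alternatives were other scalings, filters and sets of libraries, DESeq2 1.42.0, a fold threshold inside the test (glmTreat) and a replicate block. The code was checked on simulated counts. Replicate numbers are not stated to mark a shared batch, and the main fit did not use them. Deviations of same-numbered HO libraries correlated by 0.102, 0.176 and -0.02, and those of differently numbered ones by -0.154 to 0.0716. A shared batch was not tested.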

Additional observations from a re-analysis of the deposited data

Results flagged for a closer look

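At 17 genes that are discussed above or belong to the named genes, the soil difference of HO plants (HO-MSU over HO-Malaka) and that of AX plants (AX-MSU over AX-Malaka) differed by the interaction test of edgeR (FDR under 0.05). The values are log2 differences of the 2 contrasts, positive where HO-MSU over HO-Malaka was the higher. No explanation of any of them was tested.

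ERD7 stood at 2.23, ERD10 at 1.44 and COR47 at 0.91, each higher with the MSU soil in live plants and with a negative estimate in axenic plants. AT1G56660 stood at 1.46, AT2G43375 at 1.34, AT1G11960 at 1.31, AT2G47440 at 1.28 and BIM1 at 0.66 in the same way. AT3G19680 stood at 1.89, with 21.9, 25.7 and 27.0 CPM in HO-MSU against 18.6, 14.5 and 16.4 CPM in HO-Malaka, and 12.5, 7.32 and 14 CPM in AX-MSU against 27.2, 27.3 and 29.7 CPM in AX-Malaka. AT2G27080 stood at 1.78, through AX-MSU libraries of 2.80, 4.28 and 4.86 CPM against AX-Malaka libraries of 12.8, 10.9 and 11.4 CPM. SOBIR1 stood at 0.86. PRN2 stood at -2.35, MSRB5 at -0.97, APR1 at -0.80 and SHM7 at -0.58, each called lower in HO-MSU and not called in axenic plants. NAP, a senescence-induced transcription factor gene, stood at -1.45, with 2.63, 3.3 and 2.71 CPM in HO-MSU against 6.63, 4.14 and 4.02 CPM in HO-Malaka, and 7.99, 5.80 and 7.54 CPM in AX-MSU against 5.43, 4.97 and 2.83 CPM in AX-Malaka. GRP9 had a fitted value of -9.45, which is no bound because it depends on the prior count: its AX-Malaka libraries held 0 counts, against 3.22, 16.9 and 9.58 CPM in AX-MSU, while HO-MSU held 4.89, 11.8 and 4.30 CPM against 3.55, 5.92 and 3.88 CPM in HO-Malaka.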

How the results depend on the processing

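The direction of the 125 named results was stable. Over 25 settings none reversed, 2541 values stayed on their side of the threshold, 479 lost it and 30 gained it, and 22 estimates that were not called changed sign. Each of the 51 genes kept its direction in every setting that tested it. In 2 settings only 50 of the 51 were tested, the fit of the 6 HO libraries alone and the fit without genes counted mainly in HO-Malaka 3. The latter left out AT1G40104. The counts moved more. Genes with an FDR under 0.05 between HO-MSU and HO-Malaka numbered 17 with total counts (15 of the 51 among them), 77 with DESeq2 (31 of the 51), 179 without a filter (all 51), 18 with the 6 libraries alone and 0 with glmTreat (28 at an unadjusted p under 0.05), and 306 and 23 with HO-Malaka 1 or 2 as the only library of its group. Leaving out 1 library gave 16 to 196. The 7 DEGs became 1 with DESeq2, 32 without a filter, 0 with glmTreat, 57 and 20 with HO-Malaka 1 or 3 alone, and 3 to 28 without 1 library. The 23 DEGs between AX-MSU and AX-Malaka became 52 without a filter, 1 with glmTreat, 37 and 35 with HO-Malaka 3 or 2 alone, and 8 to 30 without 1 library. The 49 genes that passed for the soil by treatment interaction became 14 with total counts, 168 without a filter, 1 with glmTreat, 326 and 21 with HO-Malaka 1 or 2 alone, and 15 to 160 without 1 library. Causes were not tested. Leaving out every gene with more than 5 times as many counts in HO-Malaka 3 as in any other library gave 50 genes. Most of these genes were below the filter, as 17315 nuclear genes were still tested. This alternative was chosen after seeing the data. With the replicate number as a block, 112 genes passed (all 51 among them), 16 were DEGs and 99 had an interaction. The numbers are not stated to mark a shared batch. In deviations from the group means, HO-MSU 1 and 2, but not HO-MSU 3, correlated best with the HO-Malaka library of their own number. In log2 CPM itself HO-MSU 1 correlated best with HO-Malaka 3 (0.988). Of the list medians, 633 stayed within the spread and 92 moved.

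Limits: 3 libraries per group, each a pool, and 1 soil per community, so the community cannot be told apart from anything else that differed between the live slurries. Nuclear genes other than ribosomal RNA took 25.2% to 34.7% of the counts of a library, 3163027 to 6951695 counts. The median SE of log2FC was 0.20, and the 95% confidence interval lay within 0.5 on either side of 0 at 6635 genes, so a difference of 0.5 or more is not excluded at the others, and smaller ones can be missed at any gene.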

Other observations

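HO-Malaka 3 held counts at many genes that were silent elsewhere. At 9048 nuclear genes with at most 1 count in each of the other 11 libraries, it had a count at 2512 (27.8%). The share lay between 26.9% and 29.2% on each of the 5 chromosomes. It was higher in longer genes, from 8.52% of genes of 71 to 400 bases to 42.0% of genes of 1809 bases or more. Mean counts in HO-Malaka 3 were 0.133 and 0.797 at these lengths. The other libraries had means of 0.0271 and 0.0564, which the cap of 1 count used to choose the genes keeps low. No other library was set apart in this way, so these shares and means are a description. Genes with high counts in it alone were AT2G08986, with 352 counts against 2 to 20 in the other libraries, AT1G40104, with 130 against 0 to 12, and AT2G07981, with 105 against 0 to 7. AT3G54590 had 28 counts there, against 0 to 5 elsewhere. These values bear on genes of very few counts, most of which were below the filter. AT2G08986 and AT1G40104 were still among the genes called without HO-Malaka 2 (log2FC -4.45 and -5.19) and without HO-Malaka 1 (-4.54 and -5.39).

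The axenic plants also differed by soil at genes that did not pass between the live communities. WRKY18, a defence-related transcription factor gene, had 2.03, 0.898 and 1.48 CPM in AX-MSU against 4.39, 4.28 and 4.35 CPM in AX-Malaka (log2FC -1.54 ± 0.30, edgeR, FDR = 0.00764), while its live libraries held 7.64, 4.91 and 9.05 CPM in HO-MSU against 6.40, 4.80 and 9.25 CPM in HO-Malaka. CYP81D11, a detoxification gene, was higher in AX-MSU, at 16.5, 21.9 and 21.4 CPM, than in AX-Malaka, at 12.4, 13 and 11.6 CPM (log2FC 0.68, FDR = 0.0221), and all live libraries were at 3.36 CPM or less.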
